A study of Mus musculus with 53 samples.

Results

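Krt4, Krt13, Krt6a, Krt6b, Krt16 and Krt17 are 6 keratin genes of stratified epithelia, chosen by symbol from 19938 named genes on Gene ST arrays and 18194 named genes on 3' expression arrays of mouse organs. All 6 were measured on both array types, and each was read from its brightest probe set. The 53 arrays fall into 18 groups of 3, apart from bladder at E14.5 with 2. Gene ST arrays carried whole cornea at E14.5, E15.5, E17.5, P3, P7, P14 and P28, with trachea and tissue labelled lung at E18.5. The 3' arrays carried bladder and dorsal skin, each on E14.5, E16.5 and E18.5. The same array type also carried proximal small intestine, stomach and esophagus of E18.5 (E, embryonic day; P, postnatal day). Mice were wild-type CB6, except that E18.5 bladder came from Get1 +/- mice, which carry a single working copy of a grainyhead-like transcription factor gene. No wild-type E18.5 bladder entered the comparison, so genotype and age cannot be told apart there. Titles carry identifiers, some of them repeated between organs, but no label says whether these mark separate or shared animals. All p-values therefore rest on the spread among arrays, which may be technical.

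Keratins form intermediate filaments from pairs of a basic type II and an acidic type I chain. Krt4 (type II) and Krt13 (type I) are known as the pair of suprabasal cells in non-cornified mucosa such as esophagus. Krt6a and Krt6b (type II) with Krt16 and Krt17 (type I) are known from hair follicles, oral and other stressed epithelia, and from skin after wounding, where they rise in activated keratinocytes. All of these were organs taken whole, so fewer epithelial cells and less RNA per cell cannot be told apart at any level given here.

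In the RefSeq gene order (assembly GRCm38.p6) Krt6a and Krt6b are neighbours, as are Krt16 and Krt17. Krt6a and Krt6b are near-identical copies, and whether a probe set of either also binds the other was not tested, so their split is uncertain. Of the 6 genes the RefSeq promoter table held Krt13, the gene with the largest change in the first corneal step described here. The table gives 2 starts for Krt13. The 250 bases before each lie on the minus strand, at chr11:100121567-100121816 for the outer start and chr11:100120578-100120827 for the inner one. They are shown 5′ to 3′, with each CACCC and TGAGTCA, or the reverse complements GGGTG and TGACTCA, in capitals.

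Krt13 outer start: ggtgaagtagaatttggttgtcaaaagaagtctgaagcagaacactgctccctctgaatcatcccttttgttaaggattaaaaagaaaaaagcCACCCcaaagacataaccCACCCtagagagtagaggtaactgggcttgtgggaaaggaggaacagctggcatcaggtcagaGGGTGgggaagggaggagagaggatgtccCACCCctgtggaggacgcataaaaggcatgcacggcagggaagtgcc
Krt13 inner start: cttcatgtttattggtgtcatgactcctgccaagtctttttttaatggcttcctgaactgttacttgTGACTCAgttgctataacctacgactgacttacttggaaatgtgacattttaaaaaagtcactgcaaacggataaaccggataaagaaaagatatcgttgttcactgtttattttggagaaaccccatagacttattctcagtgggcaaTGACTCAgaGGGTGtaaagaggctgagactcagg

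CACCC is the core of the letters that Krüppel-like factors are known to bind. Over both strands the outer window held it 4 times and the inner window 1 time. Of 32851 promoter windows of the same length, 52% held it at least 1 time and 2.14% at least 4 times. TGAGTCA or its reverse complement TGACTCA, letters known for AP-1 factors, had 0 matches in the outer window and 2 in the inner one, and was in 4.46% of all windows. These matches are a description of letters, not of bound sites.

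Levels are log2(intensity + 16) after quantile normalization within an array type, with a floor of 4 where intensity was 0. Changes are differences on this scale, which understates those of low genes. A gene is called when limma's adjusted p was under 0.05 over all named genes and the change was at least 2-fold. The 3' arrays fell into 2 sets. In bladder, esophagus, stomach and E14.5 skin (17 arrays) the 5′ actin control probes read 1.94 to 3.66 log2 units below the 3′ ones (differences of -3.66 to -1.94), against differences of -0.64 to -0.09 in E16.5 skin, E18.5 skin and small intestine (9 arrays). Array correlations over all genes were 0.88 to 0.99 in the first set, 0.76 to 0.99 in the second and 0.61 to 0.8 between them. Some arrays went against their labels. On the arrays labelled lung, the thymocyte gene Rag1 read 14.15 to 14.25 and Cd8a 13.97 to 14.12, and all 9 thymus markers lay above the table median. The surfactant gene Sftpc, at 6.68 to 6.91, lay in the range of cornea. Of 8 lung markers, 4 lay above that median there, against 3 in trachea and 2 or 3 in each cornea age. Their sum ran from 10.86 to 11.02 on these arrays and from 10.58 to 11.06 in E17.5 cornea. Small intestine replicate 4, E14.5 skin replicates 1 and 2 and E18.5 skin replicates 2 and 3 are described beside the results they touch.

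In cornea, Krt13 and Krt6a went from low to high between E14.5 and E15.5, Krt6b went from low to the middle of the scale in that step and to high by P3, Krt4 rose gradually, and Krt16 and Krt17 moved least. All 6 genes were called over the 7 ages (21.7% of all genes were called). The spans between the lowest and the highest age mean were 8.42 log2 units for Krt6b, 7.07 for Krt13, 6.94 for Krt6a, 4.51 for Krt4, 2.38 for Krt16 and 2.15 for Krt17. The lowest mean was at E14.5 for Krt4, Krt13, Krt6a and Krt6b, and at E17.5 for Krt16 and Krt17. The highest was at P14 for Krt4, Krt13, Krt16 and Krt17, and at P28 for Krt6a and Krt6b.

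**Figure D1:**
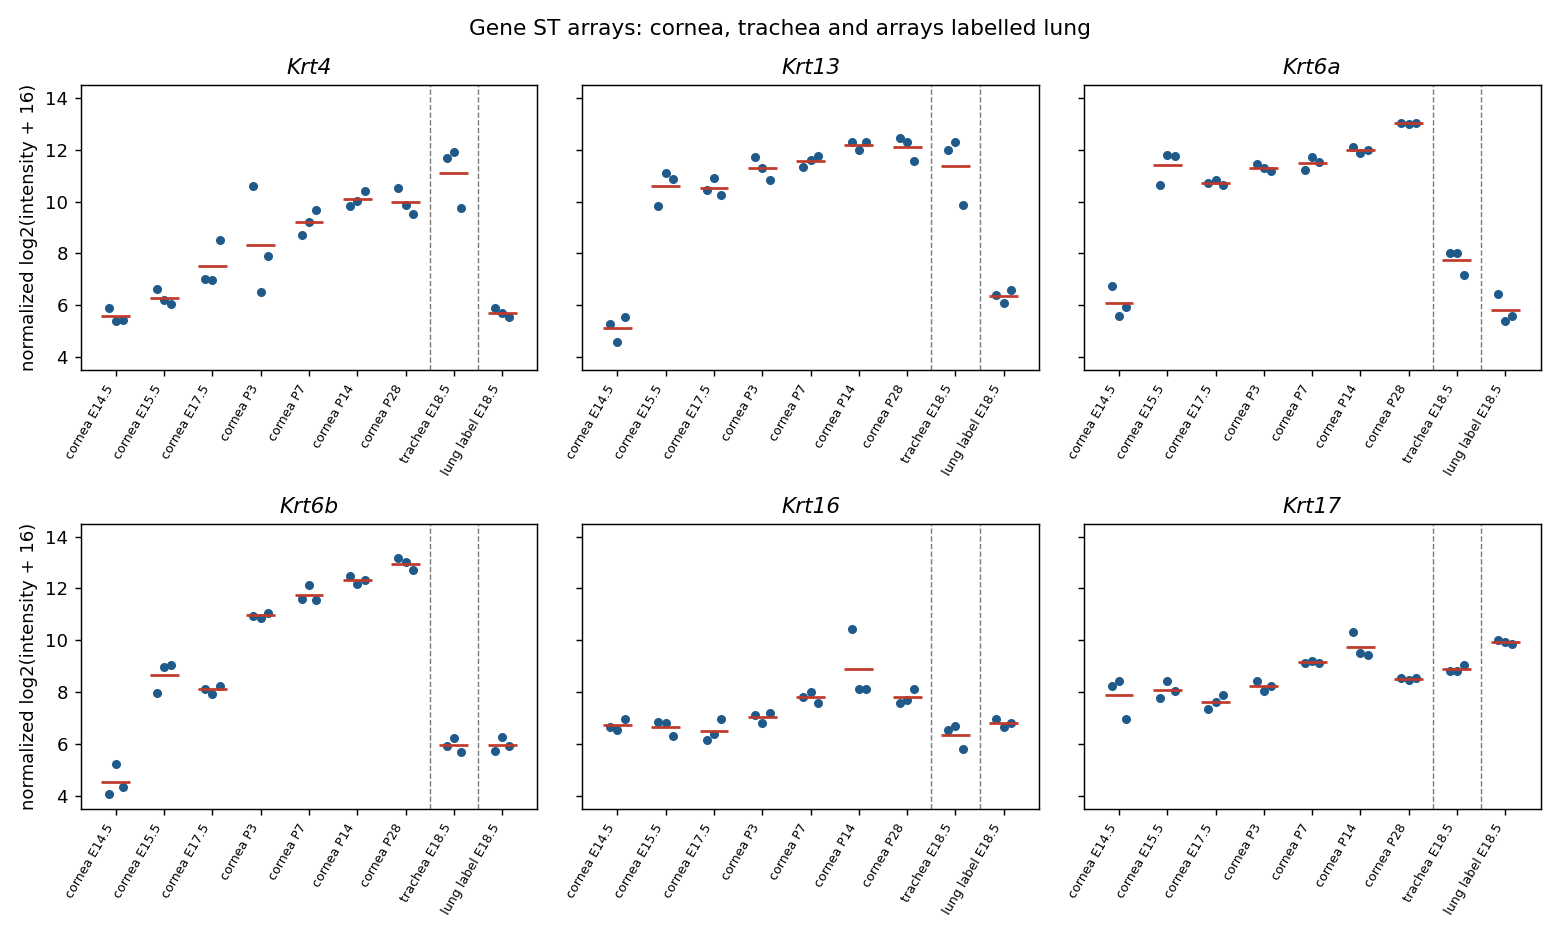
Normalized log2 level of each of the 6 keratin genes (vertical axis) in every Gene ST array by group (horizontal axis), with dashed lines between cornea, trachea and the arrays labelled lung; points are arrays and red bars group means. Krt13 and Krt6a step up between E14.5 and E15.5, Krt6b in 2 steps, and Krt4 and Krt13 are high in trachea.

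Between E14.5 and E15.5, Krt13, the acidic mucosal keratin, went from 5.27, 4.56 and 5.56 to 9.81, 11.1 and 10.87. Krt6a went from 6.75, 5.57 and 5.93 to 10.63, 11.8 and 11.77. Krt6b went from 4.05, 5.21 and 4.35 to 7.95, 8.97 and 9.05. For none of these 3 genes did arrays of the 2 ages overlap. The log2 changes were 5.46 (SE 0.44, adjusted p = 6.41e-09) for Krt13, 5.32 (SE 0.31, adjusted p = 2.49e-11) for Krt6a and 4.12 (SE 0.27, adjusted p = 1.89e-10) for Krt6b, and these 3 of 6 stood beside 7.56% of all genes called and 5.30% called higher. Each of the 3 stayed called without any single array of the 2 ages. The mucosal partner Krt4 did not pass in this step: it read 5.91, 5.37 and 5.43, then 6.62, 6.19 and 6.06, a change of 0.72 (SE 0.67, adjusted p = 0.467). The change of Krt13 exceeded that of Krt4 by 4.74 log2 units with no overlap of arrays (exact permutation test, two-sided p = 0.1, the smallest that 3 against 3 allows). The stress keratins of the acidic type moved little: Krt16 changed by -0.07 (adjusted p = 0.924) and Krt17 by 0.21 (adjusted p = 0.614).

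Other markers moved in the same step. Krt12, the keratin that defines corneal epithelium, rose by 7.18. Summed erythroid markers ran from 14.99 to 15.58 at E14.5 and from 9.24 to 11.06 at E15.5, and lens markers from 12.23 to 15.66 and from 9.25 to 9.71. Among the E14.5 arrays, replicate 3 was lowest for the basal keratin Krt5 (9.09, against 11.41 and 11.46) and for the epithelial cadherin Cdh1 (7.8, against 10.1 and 10.3). Its Krt17 was also lowest (6.95, against 8.25 and 8.44), while its Krt13 was the highest of the 3. Summed general epithelial markers ran from 10.95 to 12.42 at E14.5 and from 12.59 to 12.72 at E15.5. The part of epithelial content and of the other tissues in the keratin changes was not tested.

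Genes of stratified epithelium and its regulators moved beside the keratins between E14.5 and E15.5. In the basal list, 9 of 11 measured genes were higher and 0 lower (median change 2.03, all genes -0.02), with the desmosomal cadherins Dsg3 (3.98) and Dsc3 (3.83) at the top. In the list of suprabasal mucosal differentiation, 8 of 15 were higher and 0 lower (median 1.47), led by the membrane protein Mal (4.52) and the plakin Ppl (3.73). Of 16 transcription factors known to act on keratin genes, 8 were higher and 0 lower, among them Ehf (5.08), Zfp750 (2.62), Klf5 (2.54) and Klf4 (2.48). The list of activated keratinocytes and alarmins was mixed, with 3 of 14 higher and 2 lower: Serpinb3a rose by 5.55, and the alarmins S100a9 and S100a8 changed by -3.07 and -2.62. Of 7 epidermal suprabasal genes, 0 were called, and of 46 other keratins, 8 were higher, Krt12, Krt15 (3.81), Krt19 (2.9) and Krt5 (2.78) foremost.

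From E15.5 to E17.5, 0 of the 6 keratin genes were called (0.306% of all genes were); 2 had an unadjusted limma p under 0.05, Krt6a (-0.67) and Krt6b (-0.55). The second large step belonged to Krt6b. It read 8.13, 7.93 and 8.25 at E17.5 and 10.94, 10.86 and 11.07 at P3, a change of 2.85 (SE 0.27, adjusted p = 2.04e-06) in a comparison that called 1 of the 6, 1.43% of all genes, and 0.451% higher. Krt6a changed by 0.57 there (SE 0.31, adjusted p = 0.26). The change of Krt6b exceeded that of its copy Krt6a by 2.29 log2 units, again without overlap of arrays (exact permutation test, two-sided p = 0.1, the smallest possible). Of the 15 mucosal differentiation genes, 2 rose in this step, the sciellin gene Scel (1.53) and the mucin Muc4 (1.32), while Krt12 was lower by -1.01. Other tissues moved too: summed skeletal muscle markers ran from 10.94 to 14.11 at E17.5 and from 9.52 to 10.09 at P3, lens markers from 9.12 to 9.37 and from 11.2 to 12.71, and erythroid markers from 9.67 to 11.52 and from 8.82 to 9.17. Their part in the Krt6b change was not tested.

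From P3 to P7 and from P7 to P14, 0 of the 6 were called (1.42% and 0.0150% of all genes). Krt17 came nearest, at 8.43, 8.06 and 8.23 on P3 and 9.12, 9.19 and 9.13 on P7: the change of 0.91 had an adjusted p of 0.0429 and lay under the 2-fold limit. An unadjusted limma p under 0.05 was found for Krt17 and Krt6b from P3 to P7, and for Krt16, Krt17 and Krt6b from P7 to P14. Single arrays weighed on Krt4 and Krt16. Krt4 on P3 read 10.6 in replicate 1 but 6.49 and 7.91 in the others, and the same array was highest for the simple-epithelial keratin Krt8 (11.69, against 10.35 and 10.63). Krt16 on P14 read 10.43 in replicate 1 but 8.11 and 8.13 in the others, and Krt17 read 10.33 there, against 9.52 and 9.43. Without that array the P7 to P14 change of Krt16 was 0.32 in place of 1.09.

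**Figure D2:**
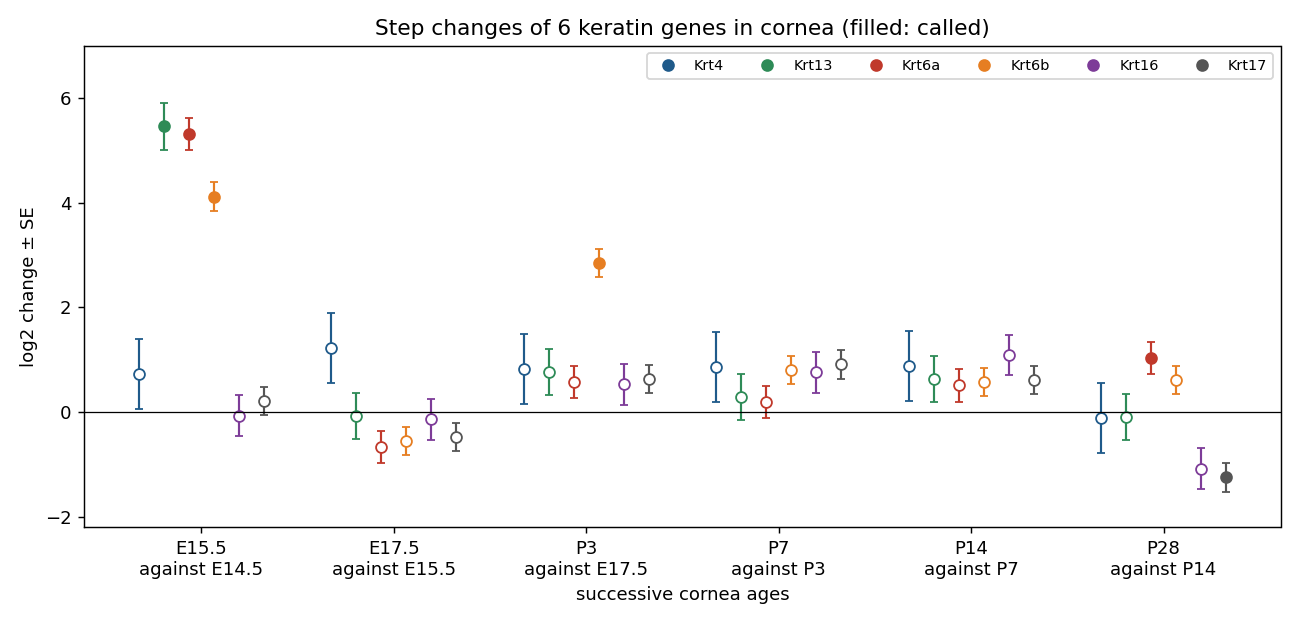
Log2 change with its standard error (vertical axis) of each keratin gene between successive cornea ages (horizontal axis), 3 arrays per age; filled points were called. The called changes are Krt13, Krt6a and Krt6b at E15.5, Krt6b at P3, and Krt6a up and Krt17 down at P28.

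Between P14 and P28 the genes parted: 1 of the 6 was higher and 1 lower, against 4.47% of all genes called, 1.63% higher and 2.84% lower. Krt6a read 12.09, 11.88 and 12 on P14 and 13.03, 12.99 and 13.05 on P28, so all P28 arrays were above all P14 arrays (change 1.03, SE 0.31, adjusted p = 0.0254). That call sat at the limit, since the adjusted p of Krt6a reached 0.0899 with single arrays left out and 5 of 6 such fits lost it. Krt17 read 10.33, 9.52 and 9.43 and then 8.54, 8.45 and 8.55, a change of -1.25 (SE 0.27, adjusted p = 0.00265), which was -0.96 and under the fold limit without P14 replicate 1. Krt16 changed by -1.08 (SE 0.39, adjusted p = 0.0733). With the array number as a block its adjusted p was 0.0479. That number is only a replicate order, and no label pairs arrays of these ages. Without P14 replicate 1 the change of Krt16 was -0.31 (adjusted p = 0.461). Krt6b changed by 0.62, Krt4 by -0.12 and Krt13 by -0.09, none of them called. In the same comparison 5 of 8 periderm genes were called, 4 of them lower, among them the simple-epithelial keratins Krt19 (-2.26), Krt18 (-1.56) and Krt8 (-1.5), and 1 was higher. Of 14 activated keratinocyte genes 2 were higher, the interleukin Il1a (3.11) and the receptor Cd44 (1.38), and 1 lower, Serpinb3a (-1.39). Of 16 keratin regulators 3 were higher, with Klf4 (1.5) foremost, and 0 lower. Lens markers summed to 14.98 in the highest P14 array and 13.85 in the highest P28 array, against 9.3 and 11.21 in the lowest, and their part in these changes was not tested.

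Over the whole series of ages, P28 against E14.5, 5 of the 6 were called, all higher (13.9% of all genes, 8.40% higher). Krt6b had the largest change (8.42, SE 0.27, adjusted p = 2.05e-16), then Krt13 (6.98), Krt6a (6.94), Krt4 (4.4, SE 0.67, adjusted p = 1.3e-05) and Krt16 (1.09, adjusted p = 0.0298). Krt17 changed by 0.63 (adjusted p = 0.0627). The call of Krt16 was lost in 4 of 6 fits without a single array, with an adjusted p up to 0.108. Krt4 gained its level over several ages with no step called: its group means were 5.57, 6.29, 7.51, 8.33, 9.2, 10.08 and 9.97, and arrays of neighbouring ages overlapped from E17.5 to P3, from P3 to P7 and from P14 to P28.

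Trachea at E18.5 held the mucosal pair at levels overlapping those of P28 cornea, and Krt6b low. Krt4 read 11.67, 11.92 and 9.76 in trachea, and Krt13 read 12, 12.31 and 9.86. Replicate 3 was the lowest for both, and also for Krt5 (9.15, against 10.72 and 10.9). Krt6a read 8.03, 8.02 and 7.15, between E14.5 and E17.5 cornea, and Krt6b read 5.92, 6.22 and 5.68, overlapping the arrays labelled lung (5.73, 6.27 and 5.93). Against those arrays 4 of the 6 were called (16.1% of all genes): Krt4 by 5.41 (SE 0.67, adjusted p = 5.8e-07), Krt13 by 5.04 (SE 0.44, adjusted p = 2.85e-09), Krt6a by 1.94 (SE 0.31, adjusted p = 1.69e-05) and Krt17 by -1.05 (SE 0.27, adjusted p = 0.00297). Krt17 was at its highest Gene ST group mean on the arrays labelled lung, at 10.01, 9.95 and 9.86, next to P14 cornea, whose arrays overlapped it. All 4 calls held without any single array of the 2 groups. Given the thymus genes on those arrays, the comparison does not set trachea against lung. Cartilage and skeletal muscle were also in the trachea arrays, with Col2a1 at 13.92 to 13.97 and Acta1 at 13.37 to 13.65. Summed esophagus markers ran from 10.74 to 13.14 in trachea and from 10.97 to 11.31 on the arrays labelled lung. In P28 cornea the same sum ran from 13.88 to 14.09. The part of esophageal tissue in the Krt4 and Krt13 levels of trachea was not tested. Among other keratins Krt19 (5.06) and Krt15 (4.73) were higher in trachea, and 7 of 16 keratin regulators were higher, including Ehf (3.71), Klf5 (3.28) and the foregut factor Sox2 (2.34).

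On the 3' arrays, esophagus at E18.5 had the highest group mean for Krt4, Krt13, Krt6a and Krt6b, and skin at E18.5 for Krt16 and Krt17. Krt4 read 12.92, 13.53 and 13.85 in esophagus and 12.58, 12.95 and 13.27 in stomach, which overlapped. Krt13 read 11.45, 11.88 and 12.22 in esophagus and 11.28, 11.32 and 11.19 in stomach, which did not overlap. Below stomach the 2 genes separated: the next group for Krt4 was E14.5 skin (11.66, 11.58 and 12.03), while Krt13 in that skin was low (5.12, 5.31 and 6.36).

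**Figure D3:**
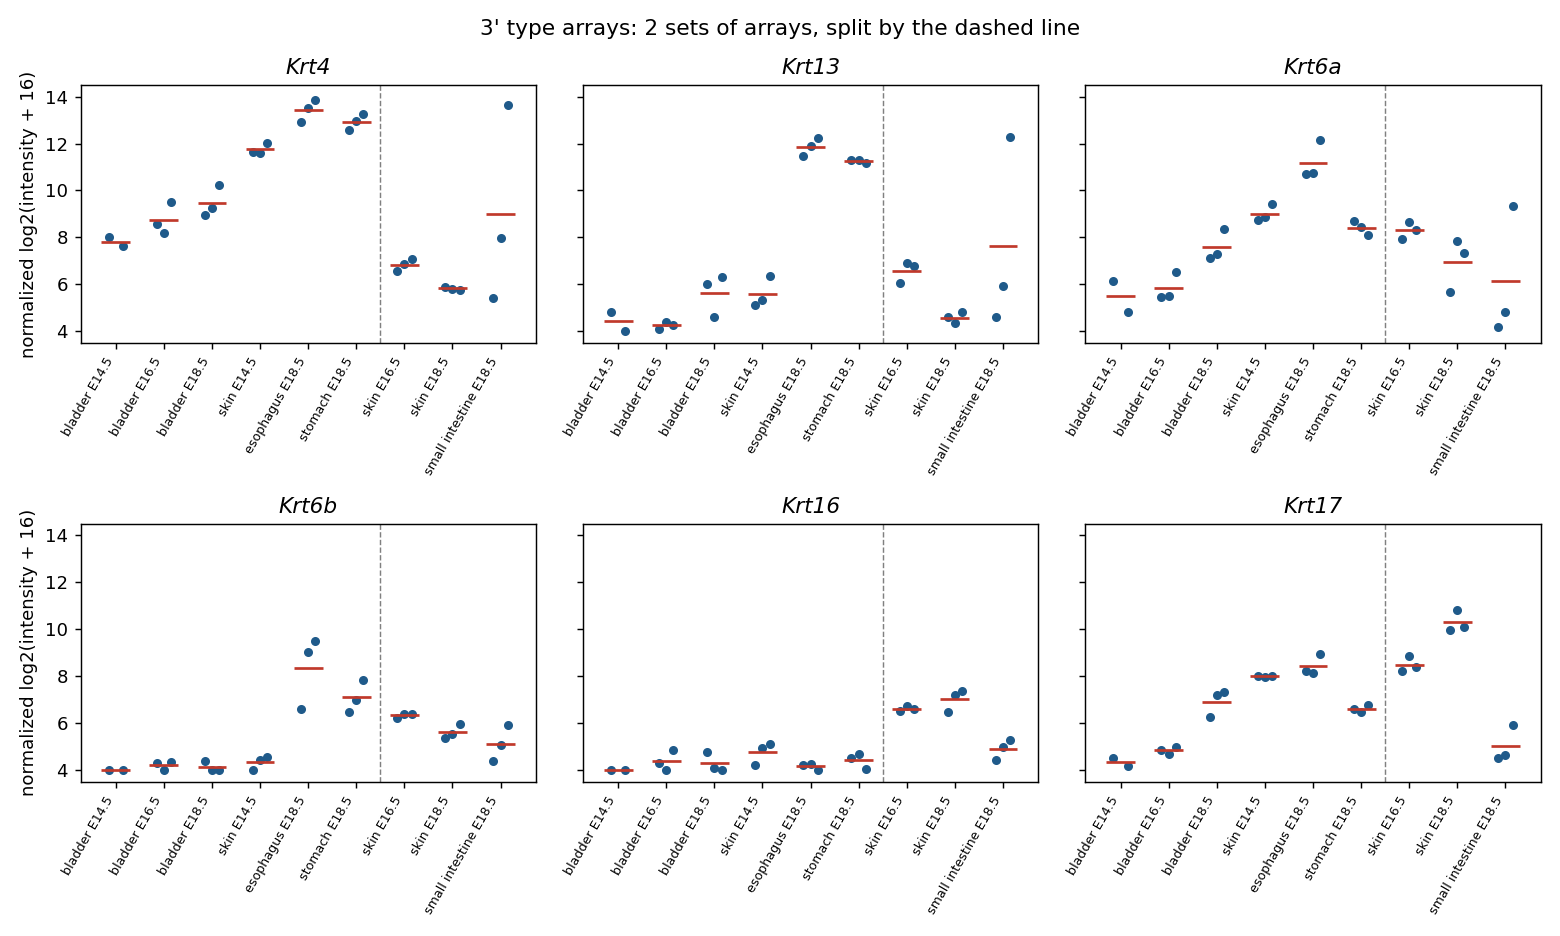
Normalized log2 level of each keratin gene (vertical axis) in every 3' array by group (horizontal axis); points are arrays, red bars group means, and the dashed line parts the 2 sets of arrays. Krt4 is high in esophagus, stomach and E14.5 skin, Krt13 in esophagus and stomach, Krt17 in E18.5 skin, and small intestine replicate 4 lies far above the other small intestine arrays for Krt4 and Krt13.

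Within the first set of arrays, esophagus exceeded bladder at E18.5 in 5 of the 6 genes (11.2% of all genes called, 4.85% higher). The bladder was Get1 +/- and the esophagus wild type, so genotype and organ cannot be told apart in comparisons with bladder at E18.5. Krt13, at 6.01, 4.62 and 6.29 in bladder, was 6.21 log2 units higher in esophagus (SE 1.11, adjusted p = 0.000288). Krt6b, at 4, 4 and 4.39 in bladder with arrays at the floor, read 6.58, 9.04 and 9.48 in esophagus (difference 4.24 on this scale, adjusted p = 3.11e-06). Krt4, at 8.96, 9.25 and 10.25 in bladder, was higher by 3.95 (SE 1.12, adjusted p = 0.0117). Krt6a was higher by 3.59 (adjusted p = 0.00383) and Krt17 by 1.52 (adjusted p = 0.00159). A second Krt17 probe set, near the floor, gave -0.62 (adjusted p = 0.0137), and Krt16 was near the floor in both organs. All 5 calls held without any single array of the 2 groups.

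Stomach exceeded bladder in 3 of the 6 (9.82% of all genes, 5.03% higher): Krt13 by 5.62 (SE 1.11, adjusted p = 0.000861), Krt4 by 3.44 (SE 1.12, adjusted p = 0.0296) and Krt6b by 2.97 (SE 0.5, adjusted p = 0.000193). The call of Krt4 was lost in 4 of 6 fits without a single array, with an adjusted p up to 0.0861. Stomach arrays carried epidermal-type transcripts too, with the cornified envelope gene Lor at 10.61 to 11.89 and Krt1 at 8.16 to 10.68. The rodent forestomach is known to be lined by cornified squamous epithelium.

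Esophagus against stomach called 2 of the 6, both higher in esophagus (7.05% of all genes, 2.80% higher). Krt17 read 8.24, 8.14 and 8.95 in esophagus and 6.6, 6.45 and 6.79 in stomach (difference 1.83, SE 0.33, adjusted p = 0.000527). The second Krt17 probe set lay between 4 and 5.19 in all 9 groups of these arrays and gave -0.63 (adjusted p = 0.0204, under the fold limit). Krt6a read 10.7, 10.73 and 12.14 against 8.7, 8.44 and 8.09 (difference 2.78, SE 0.86, adjusted p = 0.0342). Its arrays did not overlap, yet the call was lost in each of 6 fits without a single array (adjusted p up to 0.129). With small intestine replicate 4 out of the whole fit, whose Krt6a widened the shared spread, the adjusted p for Krt6a was 0.000371. Krt4 differed by 0.5 and Krt13 by 0.59, neither called. With the array number as a block, Krt6b (1.27) was called as well (adjusted p = 0.0126, against 0.102 without the block), which made 3 of the 6. In the same comparison 7 of 10 epidermal suprabasal genes were lower in esophagus, among them Flg (-5.83), Lor (-5.77) and Krt1 (-4.3), and the foregut factor Pax9 was higher by 3.93.

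Small intestine replicate 4 stood apart from replicates 1 and 3. Krt4 read 13.63 there, against 5.41 and 7.97, and Krt13 read 12.3, against 4.6 and 5.94. Krt6a read 9.35, against 4.2 and 4.83. That array was also high for the gastric proton pump gene Atp4a (11.76, against 5.25 and 5.34), for Krt5 (12.53, against 4.14 and 4.45) and for Lor (12.01, against 4.72 and 5.3), and low for the brush border gene Vil1 (9.07, against 12.43 and 12.35). Summed stomach markers ran from 10.14 to 13.89 over the 3 arrays. Without it, the differences of skin from small intestine at E18.5 went from -3.18 to -0.86 for Krt4 (adjusted p = 0.206) and from -3.04 to -0.69 for Krt13 (adjusted p = 0.249). The same comparison called 4 of the 6 with it in (19.2% of all genes). Krt17 (5.29, SE 0.33, adjusted p = 6.13e-11) and Krt16 (2.12, SE 0.28, adjusted p = 4.74e-06) were higher in skin and held without any single array. Without replicate 4, Krt6a was also called higher in skin (2.44, adjusted p = 0.00123). E18.5 skin replicates 2 and 3 carried surfactant transcripts, and the part of these in the comparison was not tested.

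**Figure D4:**
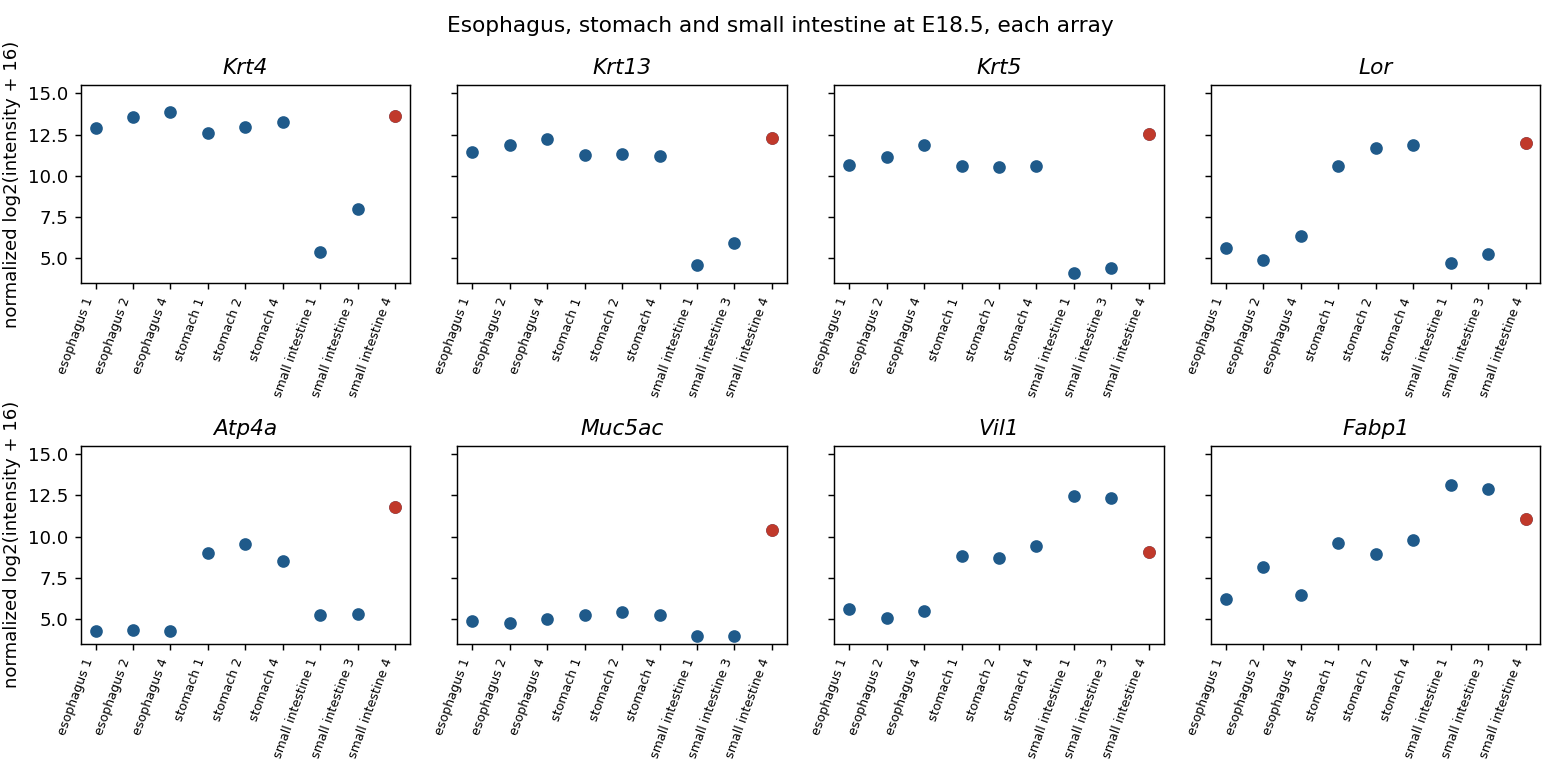
Normalized log2 level (vertical axis) of Krt4 and Krt13 beside the basal keratin Krt5, the envelope gene Lor, the gastric genes Atp4a and Muc5ac and the intestinal genes Vil1 and Fabp1 in each array of esophagus, stomach and small intestine (horizontal axis). Small intestine replicate 4, in red, reads 13.63 for Krt4 and 12.3 for Krt13, in the range of esophagus or just above it, and lies below the other small intestine arrays for Vil1 and Fabp1.

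Dorsal skin at E14.5 lay in the same set of arrays as bladder. Against E14.5 bladder, 3 of the 6 were higher in skin (14.1% of all genes, 8.11% higher), a comparison added after the data were seen. Krt17 read 8.01, 7.98 and 8.02 in skin and 4.16 and 4.52 in bladder (difference 3.66, SE 0.37, adjusted p = 3.33e-07). Krt4 read 8 and 7.63 in that bladder and differed by 3.94 (SE 1.25, adjusted p = 0.0245). Krt6a, at 8.72, 8.85 and 9.42 in skin and 6.14 and 4.82 in bladder, differed by 3.52 (SE 0.97, adjusted p = 0.0103). These p-values count skin replicates 1 and 2 as separate arrays, although they may be repeat runs of 1 sample. Without skin replicate 1 the call of Krt4 was lost, and without replicate 2 it was kept. Krt6a and Krt17 stayed called in both of these fits. The calls of Krt4 and Krt6a were lost without some single arrays, with adjusted p up to 0.134 and 0.133, and that of Krt17 was kept without each. E14.5 skin replicates 1 and 2, which share an identifier in the labels, carried intestinal transcripts (Apoa1 13.06 and 13.05, against 5.38 in replicate 3; Cdx2 9.65 and 9.77, against 4.96). Krt4 read 11.66 and 11.58 in replicates 1 and 2 and 12.03 in replicate 3. Without replicates 1 and 2 Krt4 differed by 4.21. That fit has 1 skin array, which is assumed to vary like the other groups. The part of the intestinal transcripts in the Krt4 level was not tested. Epidermal genes were present at this age, with 7 of 10 epidermal suprabasal genes higher than in bladder, among them Krt1 (6.92) and Lor (5.51).

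In skin between E16.5 and E18.5, both in the second set, 1 of the 6 genes rose (4.44% of all genes, 2.44% higher). Krt17, known for its place in hair follicles, rose from 8.23 to 8.84 at E16.5 to 9.98, 10.84 and 10.08 at E18.5, a change of 1.81 (SE 0.33, adjusted p = 0.000685) that held without any single array. The second Krt17 probe set, near the floor, changed by 0.13. Of 11 hair follicle genes, 7 rose in this step and 0 fell (median 1.82, all genes 0.03), led by the inner root sheath keratins Krt25 (6.66) and Krt71 (6.45), and of 42 other keratins 11 rose and 3 fell, with Krt27 (8.15) and Krt35 (6.69) foremost. Krt13 read 6.05, 6.9 and 6.76 and then 4.59, 4.34 and 4.8, a change of -1.99 (SE 1.11, adjusted p = 0.298) without overlap of arrays. With small intestine replicate 4 out of the fit, the same change of Krt13 had an adjusted p of 0.00135. The other Krt13 probe sets, near the floor, had means of 4.03 and 4.46 at E16.5 and of 4 and 4.08 at E18.5. The size of that Krt13 change, not called with all arrays in the fit, therefore rests on its brightest probe set. Krt4 changed by -1.01, Krt6a by -1.35, Krt6b by -0.73 and Krt16 by 0.4, none called. Of 14 activated keratinocyte genes, 3 fell and 0 rose: Sprr1b by -4.18, and the growth factors Ereg by -1.99 and Tgfa by -1.7. The surfactant gene Sftpc read 13.73 and 13.21 in E18.5 skin replicates 2 and 3 and 4.07 in replicate 1. In replicates 1, 2 and 3 in that order, Krt17 read 9.98, 10.84 and 10.08. Krt6a read 5.69, 7.84 and 7.32, and Krt16 read 6.48, 7.19 and 7.37. Krt6b read 5.36, 5.54 and 5.95, and Krt4 read 5.9, 5.81 and 5.77. Summed lung markers ran from 7.63 to 14.52 over the E18.5 skin arrays and from 8.23 to 12.64 over those of E16.5. The part of such transcripts in the result was not tested.

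In bladder, 0 of the 6 were called between E14.5 and E16.5 (0.341% of all genes), and at an unadjusted p under 0.05 there were 0 as well. Between E16.5 and the Get1 +/- bladder at E18.5, 1 of the 6 was called, and it was higher (6.14% of all genes, 3.99% higher). Krt17 read 4.7 to 5 at E16.5 and 6.24, 7.18 and 7.33 at E18.5, a change of 2.06 (SE 0.33, adjusted p = 0.000219) that held without any single array. The second Krt17 probe set gave 0.22. Krt6a read 5.44, 5.5 and 6.53 and then 7.14, 7.31 and 8.35 (change 1.77, SE 0.86, adjusted p = 0.182), with no overlap of arrays, and passed at 0.0159 with small intestine replicate 4 out of the fit. Krt13 changed by 1.4, with arrays that also did not overlap. Beside Krt17, the basal keratin Krt14 (2.61), Krt20 (3.03), known from umbrella cells, and 5 of 8 periderm genes, including Krt18 (2.04) and Krt8 (1.4), were higher. Summed general epithelial markers ran from 11.31 to 11.59 at E16.5 and from 12.68 to 13.24 at E18.5, skeletal muscle markers from 9.77 to 10.66 and from 11.83 to 12.1, and erythroid markers from 9.92 to 10.68 and from 6.43 to 7.83. Their part in the Krt17 change was not tested.

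Comparisons across the 2 sets of arrays called 42.7% to 48.9% of all genes, against 0.341% to 19.2% within a set, and there organ, age and array set cannot be told apart. Esophagus against skin at E18.5 gave the widest gaps, 7.6 for Krt4 and 7.27 for Krt13, with 6 of 6 called beside 48.9% of all genes. Krt16 and Krt17 ran the other way in that comparison, by -2.86 and -1.86. Stomach against skin called 5 of the 6 (48.3%), skin against bladder at E18.5 4 (46.0%), esophagus against small intestine 5 (48.8%), stomach against small intestine 5 (45.6%) and bladder against small intestine 1 (45.2%). Skin at E18.5 holds replicates 2 and 3, which carried surfactant transcripts, and the part of these in its comparisons was not tested. The comparisons with small intestine hold its replicate 4, which went against its label. Without it the difference of esophagus from small intestine in Krt4 was 6.74 in place of 4.43, that of stomach was 6.24 in place of 3.93, and both counts stayed at 5. The count for bladder became 3, with Krt4 (2.79) and Krt6a (3.08) called beside Krt17. Without single arrays the count for stomach ran from 3 to 5. Over the 5 organs at E18.5 all 6 were called, beside 71.1% of all genes.

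Skin from E14.5 to E16.5 crossed the sets as well, and 3 of the 6 were called (43.2% of all genes). Krt4 read 11.66, 11.58 and 12.03 at E14.5 and 6.58, 6.86 and 7.07 at E16.5 (change -4.92, SE 1.12, adjusted p = 0.000613). Krt16 (1.86, adjusted p = 6.91e-06) and Krt6b (2.01, adjusted p = 0.00143) were higher. Replicates 1 and 2 of E14.5 skin have the same identifier in their titles and may be repeat runs of 1 sample. With those arrays averaged into 1, Krt4 changed by -4.99 (adjusted p = 0.00219) and the same number of genes, 3, was called. From E14.5 to E18.5 5 of the 6 were called (42.7%), but 3 with the same arrays averaged and 3 to 4 without any single array. Krt4 (-5.93), Krt16 (2.25) and Krt17 (2.3) stayed called in those fits. Krt6a (-2.05) was lost in 5 of 6 fits without a single array and Krt6b (1.28) in 4 of 6, and both were lost with the arrays averaged (adjusted p = 0.0674 and 0.0705). The second Krt17 probe set gave -0.27. Of 8 periderm genes 7 were called in the same comparison of E16.5 with E14.5, 5 lower and 2 higher: Krt18 changed by -4.64, Krt8 by -3.85 and Krt19 by -3.36, and the cell cycle regulator Sfn by 3.47. Upk1b, a uroplakin gene, read 10.11 to 10.47 in E14.5 skin and 5.91 to 6.26 at E16.5. The part of the array set in these changes was not tested, and no group of the same organ and age was run in both sets.

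**Figure D5:**
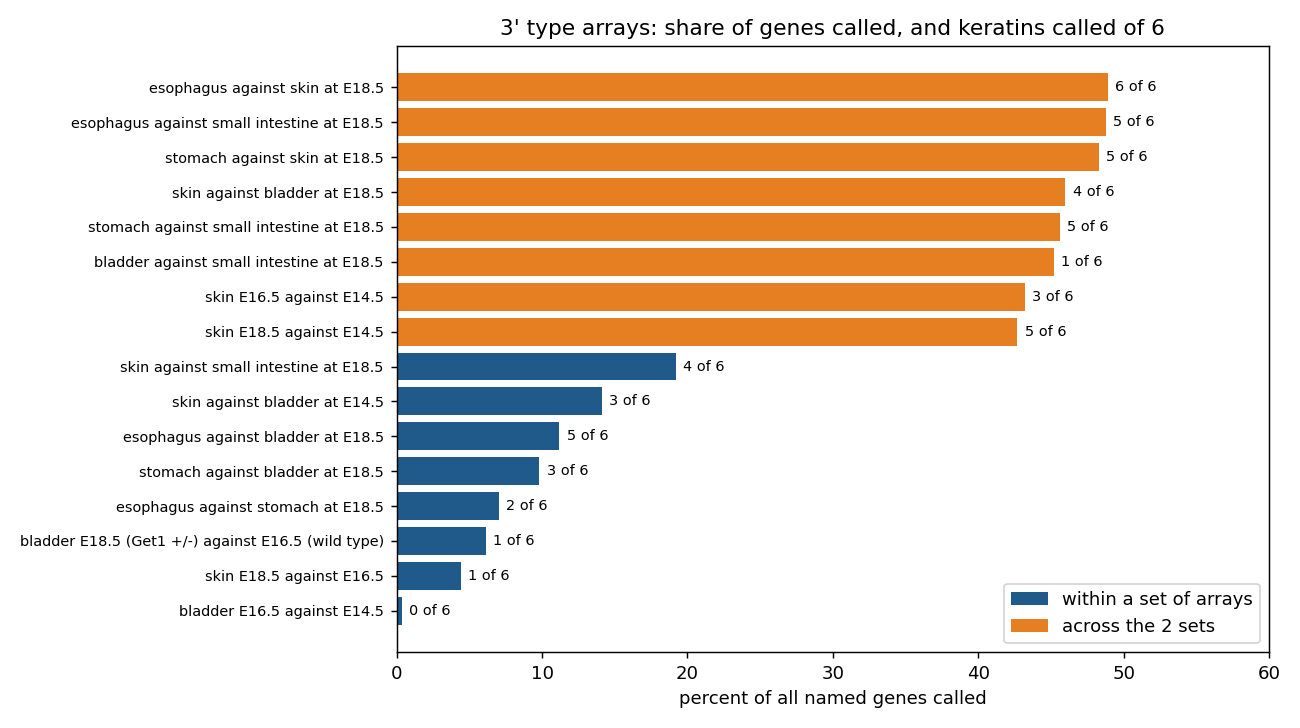
Share of all named genes called (horizontal axis, percent) in each pairwise comparison of 3' array groups (vertical axis), with the number of the 6 keratin genes called beside each bar; blue bars lie within a set of arrays and orange bars across the 2 sets. The 8 comparisons across sets run from 42.7% to 48.9% and the 8 within a set from 0.341% to 19.2%.

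Across the 9 Gene ST groups, the group means of Krt6a and Krt6b ran most alike among the 6 (r = 0.916), then Krt13 with Krt6a (0.857) and Krt4 with Krt13 (0.81). Krt17 did not follow Krt13 (0.0527) or Krt6a (-0.141). Across the 9 groups of 3' arrays Krt13 ran most like Krt6b (0.873) and Krt4 (0.765), and Krt16 most like Krt17 (0.687), while Krt4 and Krt16 ran opposite (-0.657). Each gene was also set against all genes spanning at least 2 log2 units, 3885 on Gene ST arrays and 8066 on 3' arrays. The nearest on Gene ST arrays were Lrrc26 for Krt4 (0.982), Foxc1 for Krt13 (0.99), and Fxyd3 and Mal for Krt6a (0.989 and 0.988). Ermp1 was nearest for Krt6b (0.988), the cornified envelope gene Ivl for Krt16 (0.942) and Olfm4 for Krt17 (0.902). On 3' arrays the nearest were Cep85 for Krt4 (0.974), Sprr3 for Krt13 (0.952) and Slc6a14 for Krt6a (0.956). BC064078 was nearest for Krt6b (0.945), Ephb6 for Krt16 (0.993) and Dnaja4 for Krt17 (0.969). Next for Krt4 came Met (0.964) and the desmosomal gene Dsc2 (0.961), and for Krt17 Tnni2 (0.958) and Smpx (0.953). These are descriptions over 9 group means that share arrays, sets and organs, and each nearest gene is the highest of many correlations. The means include the arrays labelled lung and small intestine replicate 4, which went against their labels.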

How the data were processed

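Total RNA from 53 whole-organ samples was measured on 2 Affymetrix array types. Per the submitters' processing notes, the authors made the deposited intensity values with PLIER 2.0 in Affymetrix Expression Console 1.1.1. Annotation gave 1 gene to 21789 of 35556 Gene ST probe sets and 34958 of 45101 3' probe sets. Probe sets with several genes (1621 and 932) were left out. From the deposited intensities, log2(intensity + 16) was taken, quantile-normalized within each array type, and the brightest probe set kept per gene. limma 3.58.1 (R 4.3.3) was fitted over all groups of a type, with Benjamini-Hochberg adjustment over all named genes. The types were never tested together. Other normalizations, pseudocounts, probe sets, filters and fits without single arrays were tried. The number of arrays limits precision. Array numbers deviated together in cornea P14 and P28 (r 0.133 to 0.242 over 3 pairs), a pairing seen only in the data. The script was tested on simulated data. The 6 genes were named by symbol; up to 4 genes per list with the largest called change were named. Members and lists were chosen with earlier results of these data known.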

Additional observations from a re-analysis of the deposited data

Results flagged for a closer look

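Skin and bladder differed in how 2 keratin genes changed between E14.5 and E16.5, by the test of the difference itself. For Krt4 the change in skin minus that in bladder was -5.85 log2 units (SE 1.68, adjusted p = 0.00596), with skin falling from 11.75 to 6.84 and bladder at 7.81 and 8.75. For Krt16 the difference was 1.47 (SE 0.43, adjusted p = 0.0065), with skin at 4.76 and 6.62 and bladder at 4 and 4.39. Both p-values count replicates 1 and 2 of E14.5 skin as separate arrays, although these may be repeat runs of 1 sample. The same test called 42.2% of all genes, and E14.5 skin and E16.5 skin lie in different sets of arrays while both bladder ages lie in the first, so age and array set cannot be told apart in skin. The call of Krt4 was kept with pseudocounts of 1 and 64 and without the E14.5 skin arrays with Apoa1 signal (-6.13, adjusted p = 0.0249, 1 skin array left at that age). The call of Krt16 was lost in each of these: it was 1.01 (adjusted p = 0.603) with a pseudocount of 1, 0.83 with 64, under the fold limit, and 1.11 (adjusted p = 0.072) without those arrays.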

How the results depend on the processing

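Of 307 counts of called keratin genes recomputed under alternatives other than leaving out an array, 276 stayed within 1.5 times the reported count. The exceptions were as follows. With each array shifted to the same median, P7 against P3 cornea gave 1 and esophagus against stomach 1. With no fold limit, P7 against P3 gave 1. With a pseudocount of 1, P28 against P14 gave 1, esophagus against stomach 1, bladder against small intestine 2 and the skin minus bladder difference 1; with 64, skin E16.5 against E14.5 gave 1, stomach against small intestine 3 and the skin minus bladder difference 1. With the mean of all probe sets, skin E18.5 against E16.5 gave 0 and esophagus against stomach 1. With the second-brightest probe set, skin E18.5 against E16.5 gave 0, bladder E18.5 against E16.5 0, esophagus against stomach 1, skin against small intestine 2 and bladder against small intestine 0. With only the groups compared, skin E18.5 against E16.5 gave 3, bladder E18.5 against E16.5 2, and small intestine comparisons 3 (esophagus), 2 (stomach) and 2 (skin). With skin E14.5 arrays of a shared identifier averaged, skin E18.5 against E14.5 gave 3.

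Alternatives added after seeing the data also moved counts. Without small intestine array 4, skin E18.5 against E16.5 gave 2, bladder E18.5 against E16.5 3 and bladder against small intestine 3. Without E14.5 skin arrays with Apoa1 signal, skin E18.5 against E14.5 gave 3, the skin minus bladder difference 1 and skin against bladder at E14.5 1. With only arrays of like actin signal, bladder E18.5 against E16.5 gave 3 and skin against small intestine 2.

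Without a single array, the counts ran from 0 to 1 for P7 against P3, 1 to 2 for P28 against P14, 3 to 4 for skin E18.5 against E14.5, 1 to 2 for esophagus against stomach, 3 to 5 for stomach against small intestine, 2 to 4 for skin against small intestine, 1 to 3 for bladder against small intestine and 1 to 3 for skin against bladder at E14.5; of 82 called keratin changes, 68 stayed called without any single array.

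Krt17 turned sign on its second probe set, near the floor: -0.27 for skin E18.5 against E14.5, -0.63 for esophagus against stomach, -0.62 for esophagus against bladder, 0.13 for stomach against skin and -0.12 for skin against bladder. Krt13 turned sign for bladder against small intestine without array 4 (0.37, the highest without a single array, against a lowest of -3.48 without array 1) and for the skin minus bladder difference with the mean of probe sets (-0.01) or the second-brightest (-0.55). The cause was not tested.

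With the array number as a replicate block, P28 against P14 called 3 keratin genes in place of 2, esophagus against stomach 3 in place of 2 and stomach against small intestine 4 in place of 5. Elsewhere the block gave 6 over the 7 cornea ages, 3 for E15.5 against E14.5, 1 for P3 against E17.5, 5 for P28 against E14.5, 4 for trachea, 5 for esophagus against small intestine and 0 in the other cornea steps. In cornea the number is only a replicate order, and no label pairs arrays of different ages. Outside P14 and P28 cornea not every pair passed a correlation of 0.1, so the arrays are taken to share only a number. For esophagus and stomach all 3 pairs were positive (0.0644 to 0.13). Low signal limits Krt16, Krt6b and Krt13 in bladder, where values lie at or near the floor.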
